A study of Mus musculus with 24 samples.

Results

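The AP-1 family was followed here through 9 genes, Fos, Fosb, Fosl2, Jun, Junb, Jund, Batf, Batf3 and Atf3, on all 24 arrays of a study of mouse T helper cells. The genes were chosen by name and not by their values, and they were measured by 10 of the 55681 probes and made up 9 of the 20022 named genes on the array. Naive CD4+ T cells of female C57BL/6 mice had been differentiated in culture to Th1 cells (14 arrays) or Th2 cells (10 arrays). DMSO served as the vehicle (6 arrays). JQ1, which displaces BET proteins from acetylated chromatin, was given at 50 or 500 nM (10 arrays), and flavopiridol at 1 or 10 µM (8 arrays). Flavopiridol blocks P-TEFb, the kinase that releases paused RNA polymerase II. Every treatment was paired, with 1 array of unstimulated and 1 array of reactivated cells, which gave 12 pairs. Cells were taken after 6 hr, and a further time of 24 hr was sampled for the DMSO and 500 nM JQ1 groups of Th1 cells. The treatment time of the Th2 DMSO arrays is unclear, because their labels give both 6 and 24 hr. The labels do not name the reactivating stimulus. The question behind the arrays was how far transcription in these cells depends on P-TEFb and on BET proteins.

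AP-1 factors bind DNA as pairs of basic leucine zipper proteins. Fos proteins need a Jun partner, Jun proteins pair with Fos proteins or with one another, Batf and Batf3 pair with Jun proteins and with IRF factors, and Atf3 pairs with Jun proteins or with itself. In T cells the T cell receptor induces Fos and Jun genes through MAP kinases, many of them within minutes, and AP-1 then acts with NFAT at cytokine genes.

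Each array set the Cy3 signal of 1 T helper RNA against the Cy5 signal of naive CD4+ T cell RNA. Values are log2 ratios of sample over naive, so 0 is the naive level and a difference of 1 is a doubling. There was 1 array per condition. Tests therefore rest on effects that recur across cell types, states or treatments, and their errors are the spread across those contexts and not across repeated cultures. A gene was called at an adjusted p below 0.05 by limma with Benjamini-Hochberg adjustment over all genes tested. A difference between single arrays was taken as not separable where it was below 0.37, which is 2 SD of the repeated Cy5 measurement over all probes. The Cy5 signal of the shared naive reference ranged over 1.90 for Fosb, 1.645 for Batf3 and 1.91 for Atf3 (log2) across the 24 arrays. For the other members it ranged over 0.23 to 0.39. The limit of 0.37 thus understates the spread of the reference for Fosb, Batf3 and Atf3. Fewer cells expressing a gene and less RNA of it per cell cannot be told apart in these bulk samples.

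In Cy3, the probes well above background were 48.8% to 52.0% with DMSO, 43.8% to 51.1% with JQ1 and 35.5% to 41.5% with flavopiridol. In the DMSO arrays the Th1 factor Tbx21 was at 5.41 in unstimulated Th1 and -0.02 in unstimulated Th2 cells, and the Th2 factor Gata3 was at -0.52 and 1.95. After reactivation Tbx21 was also high on the Th2 array, at 4.64, and Ifng was at 6.20 there. The CD8 gene Cd8a was at 1.39 in unstimulated Th1 and -0.02 in unstimulated Th2 cells, and Cd8b1 at -1.23 and -1.26. Of the other Th2 markers, Il4, Il5 and Il13 were higher in Th2 cells in both states. Il1rl1 was at 2.42 in unstimulated Th1 and 3.47 in unstimulated Th2 cells, and at 5.505 and 3.91 after reactivation. The B cell gene Ms4a1 was above the naive level on these 4 arrays, at 1.61 to 4.03, while the NK cell gene Klrb1c was well above background on 0 of the 24. Of the 4 myeloid markers, Csf1r and Itgam were well above background on 24 arrays, Cd14 on 3 and Lyz2 on 0. The summed Cy3 level (log2) of the 4 myeloid markers was 13.5 to 14.2 with DMSO, 13.4 to 14.2 with JQ1 and 12.2 to 13.7 with flavopiridol, and the part of other cell types in the results was not tested. No slide held flavopiridol arrays with the DMSO controls of the same cells, but both slides with flavopiridol also held arrays of the other cell type without it. In the flavopiridol fit all DMSO arrays lay on 1 slide and all flavopiridol arrays on others, so slide and drug cannot be told apart there. Fits with slide as a random block were run beside the main ones, and they cannot separate slide from flavopiridol. With that block the share of all genes called went from 48.9% to 33.7% with 10 µM flavopiridol and from 51.7% to 37.2% with 1 µM. Th1 cells with JQ1 shared a slide with their controls, and Th2 cells with JQ1 did not.

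All 9 genes had a promoter in the RefSeq table of build GRCm38.p6. The 3 shown here, as the 250 bases before the annotated start, belong to the genes that rose on reactivation under 1 µM flavopiridol. Capitals mark the TGACG core of the cyclic AMP response element, the AP-1-like TGACATCA and the TATAAA box, as found on either strand.
Fos, chr12:85473640-85473889, plus strand: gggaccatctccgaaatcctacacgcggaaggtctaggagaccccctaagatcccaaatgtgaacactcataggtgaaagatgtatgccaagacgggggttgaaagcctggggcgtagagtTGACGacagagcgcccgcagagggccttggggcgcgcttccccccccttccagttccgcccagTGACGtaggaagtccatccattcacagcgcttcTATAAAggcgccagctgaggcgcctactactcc
Fosb, chr7:19310046-19310295, minus strand: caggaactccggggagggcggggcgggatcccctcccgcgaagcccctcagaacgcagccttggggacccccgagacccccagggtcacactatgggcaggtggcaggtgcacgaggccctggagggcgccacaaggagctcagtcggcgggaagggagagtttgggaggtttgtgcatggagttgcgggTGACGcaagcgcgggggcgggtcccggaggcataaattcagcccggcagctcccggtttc
Jun, chr4:95052223-95052472, minus strand: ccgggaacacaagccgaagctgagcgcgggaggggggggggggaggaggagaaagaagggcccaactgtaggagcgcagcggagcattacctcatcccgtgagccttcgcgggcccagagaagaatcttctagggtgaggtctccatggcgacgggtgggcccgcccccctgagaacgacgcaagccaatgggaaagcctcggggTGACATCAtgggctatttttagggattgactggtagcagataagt

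Fos held TGACG 129 and 66 bases before its start and TATAAA 33 bases before it, Fosb held TGACG 60 bases before its start, and Jun held TGACATCA 45 bases before its start. TGACG stood in 5 of the 9 windows (also in Junb, Batf and Atf3) and in 17.8% of the 32851 promoters of the same length. TGACATCA stood in 1 of the 9 and in 2.93% of all promoters, and TATAAA in 1 of the 9 and in 12.4%. The full response element TGACGTCA, which contains TGACG, was in none of the 9 windows and in 1.55% of all, and the AP-1 site TGACTCA was in none of the 9 and in 4.46%. These letters describe the windows only.

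Over the 24 arrays the 9 genes differed in where they stood against naive cells. Fos and Jun were below the naive level on 21 arrays each and Jund on 20, whereas Batf3 was above it on all 24. Atf3 was at 0.90 or more on the 16 arrays without flavopiridol, and it was measured well above background on 19 arrays in Cy3 and on 12 in the naive Cy5 channel. Fos covered the widest range of the 9, from -4.30 in unstimulated Th2 cells with DMSO to 3.19 in reactivated Th2 cells with 1 µM flavopiridol. Junb covered the narrowest, from -0.66 to 1.69. When the 24 levels of a gene were put in order, few neighbours were separable, from 1 of 23 steps for Junb and Batf to 7 of 23 for Fos.

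**Figure D1:**
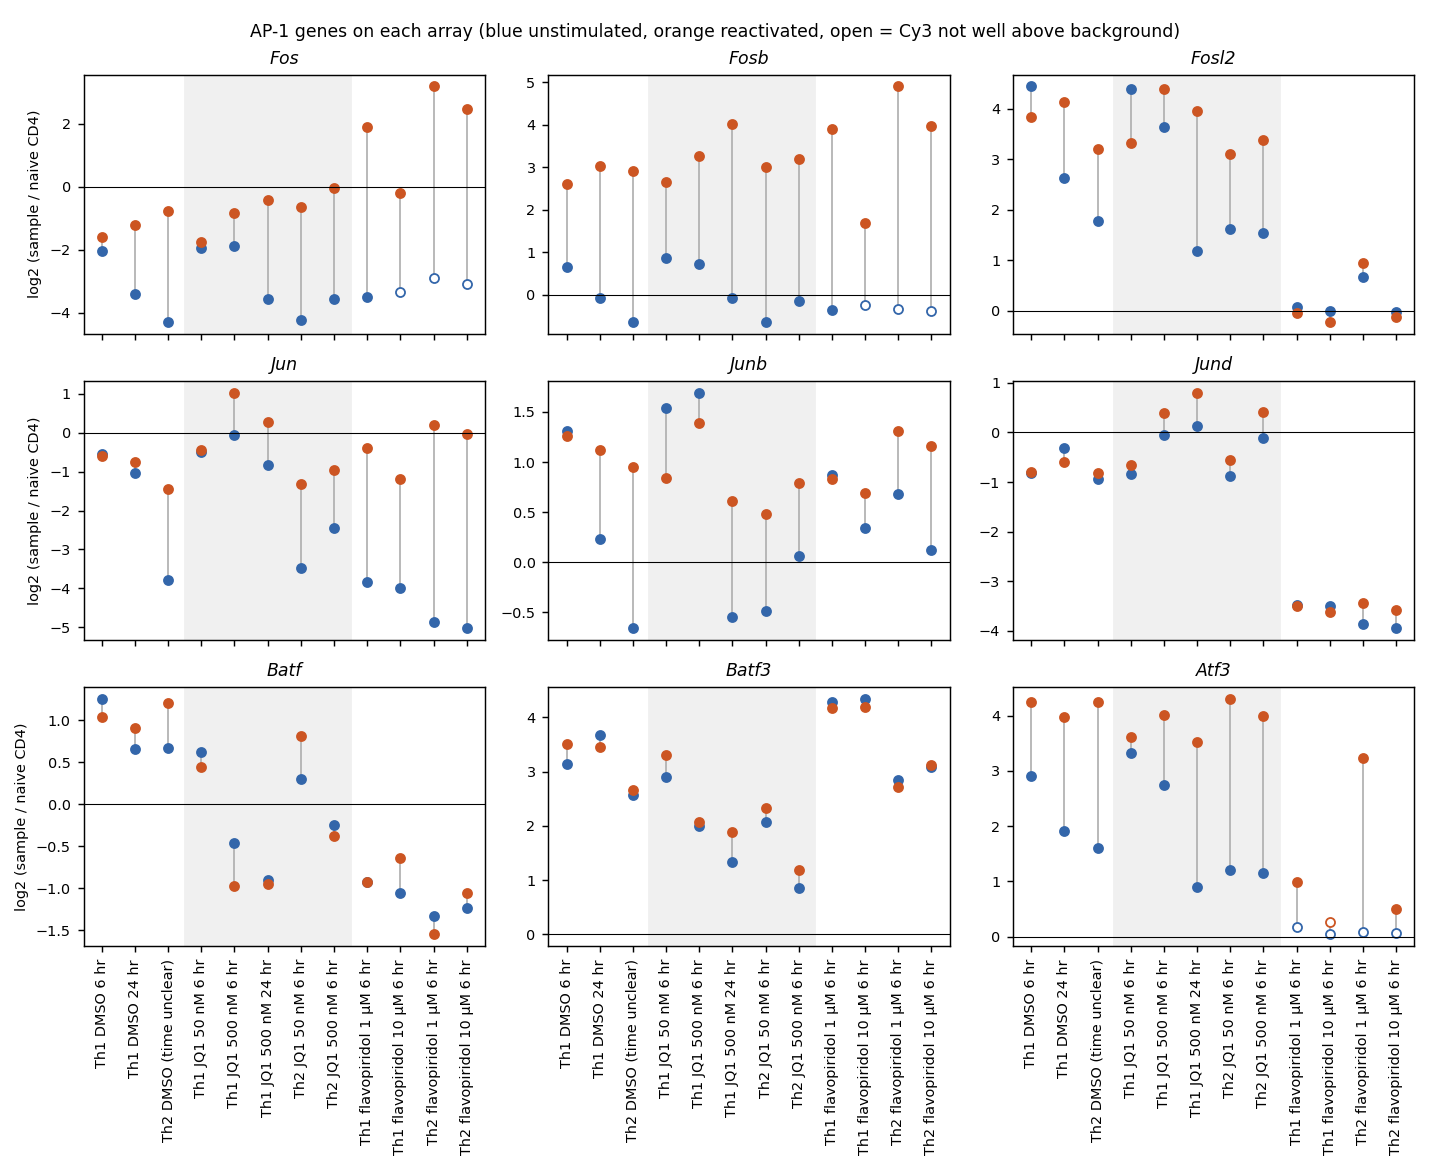
Log2 ratio of sample over naive CD4+ T cells for the 9 AP-1 genes on each of the 24 arrays, with the 2 arrays of a pair joined by a line (blue unstimulated, orange reactivated, open symbols not well above background in Cy3, grey band JQ1). Fosl2 and Jund stand lowest on the 8 flavopiridol arrays, Fos is above the naive level only on 3 reactivated flavopiridol arrays, and Batf3 is lowest, at 0.85, in unstimulated Th2 cells with 500 nM JQ1.

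Reactivation without drug raised Fos, Fosb and Atf3. Of the 9 genes 3 were called higher and none lower, while of all 12530 genes tested 50.9% were called, 21.9% higher and 29% lower. With arrays shifted by their spike-in RNA the balance over all genes turned, from 2746 higher and 3637 lower to 3978 higher and 2160 lower, and Fosl2 (1.06) and Junb (1.08) were called too. Fos, the early-induced partner of Jun, was at -2.04, -3.42 and -4.30 in unstimulated Th1 cells at 6 hr, Th1 cells at 24 hr and Th2 cells, and at -1.61, -1.21 and -0.77 in the same order after reactivation. The reactivated arrays were all above the unstimulated ones and none reached the naive level. The difference was 2.06 ± 0.52 (SE, 3 pairs; adjusted p = 0.017), or 4.16-fold, and it ran from 0.43 in Th1 cells at 6 hr to 3.53 in Th2 cells. Without the Th1 pair at 24 hr the adjusted p was 0.050.

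Fosb, a second Fos protein, was at 0.65, -0.08 and -0.63 unstimulated and at 2.61, 3.04 and 2.91 reactivated, so the states did not overlap. It rose by 2.87 ± 0.29, or 7.33-fold (adjusted p = 0.00065). Atf3, a stress-induced factor that can act as a repressor, was at 2.91, 1.91 and 1.61 unstimulated and at 4.25, 3.98 and 4.24 reactivated. It rose by 2.01 ± 0.24, or 4.04-fold (adjusted p = 0.0011). The Cy5 signal of Atf3 was well above background on 12 of 24 arrays, and with the scanner software's own log ratio the rise was 0.39 with an adjusted p of 0.40.

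The other 6 genes were not called. Fosl2, a Fos protein without the strong activation domain of Fos, was at 4.44, 2.62 and 1.76 unstimulated and at 3.84, 4.13 and 3.20 reactivated, a difference of 0.78 ± 0.41 (adjusted p = 0.16). The unstimulated Th1 array at 6 hr was the highest of these 6. Without that pair the difference was 1.48 (adjusted p = 0.0021), and Junb was called as well (1.25, adjusted p = 0.0087).

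Jun was at -0.56, -1.03 and -3.79 unstimulated and at -0.61, -0.76 and -1.43 reactivated, a difference of 0.86 ± 0.44 (adjusted p = 0.15). Junb was at 1.31, 0.23 and -0.66 unstimulated and at 1.26, 1.12 and 0.95 reactivated, a difference of 0.81 ± 0.30 (adjusted p = 0.060). In both Jun genes the states overlapped and the unstimulated Th2 array was the lowest. Jund, the Jun protein that is present in resting cells, differed by -0.04, Batf by 0.19 and Batf3 by 0.08 (adjusted p = 0.815, 0.398 and 0.685).

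Jun, Fosl2, Junb and Batf3 were higher in Th1 cells, taken at 6 hr, than in Th2 cells. Over the 6 matched pairs of Th1 and Th2 arrays with DMSO or JQ1, 4 of the 9 genes were called higher in Th1 cells and none in Th2 cells. Of all genes 28.6% were called, 14.5% higher in Th1 cells and 14.1% higher in Th2 cells. These 1868 and 1825 genes became 878 and 1833 with median centring and 460 and 695 with the spike-in shift. Jun was higher by 2.05 ± 0.32 (adjusted p = 0.0027), Fosl2 by 1.57 ± 0.35 (adjusted p = 0.012), Junb by 1.15 ± 0.26 (adjusted p = 0.013) and Batf3 by 0.88 ± 0.08 (adjusted p = 0.00022). Without the block Batf3 was not called (adjusted p = 0.29), where 3.38% of all genes were called. The differences of Atf3 (0.73), Fos (0.58) and Fosb (0.52) were not called, with adjusted p of 0.16, 0.45 and 0.17. When the flavopiridol pairs were added, Fosl2 was at 0.77 and Junb at 0.64 and neither was called.

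For Fos, Fosb, Fosl2, Jun, Junb and Atf3 the difference between Th1 cells at 6 hr and Th2 cells depended on the state. A test of that dependence, chosen after the values were seen, called 6 of the 9 genes, all with a lower difference in reactivated cells. Of all genes 19.9% were called, 9.71% that way and 10.2% the other way. The 1253 and 1321 genes became 1327 and 437 with median centring and 1087 and 30 with the spike-in shift. Fos was higher in Th1 cells in the unstimulated pairs, by 2.26 with DMSO, 2.27 with 50 nM JQ1 and 1.68 with 500 nM JQ1, and lower in the reactivated pairs, by -0.84, -1.11 and -0.78. The sign turned in all 3 treatments, and the 2 states differed by -2.98 ± 0.17 (adjusted p = 1.9e-05).

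Fosl2 was higher in Th1 cells by 2.68, 2.77 and 2.10 unstimulated and by 0.64, 0.21 and 1.01 reactivated. Junb was higher by 1.96, 2.03 and 1.63 unstimulated and by 0.31, 0.36 and 0.60 reactivated. Jun was higher by 3.23, 2.97 and 2.41 unstimulated and by 0.83, 0.89 and 1.99 reactivated. After reactivation the differences of Fosl2 with 50 nM JQ1 and of Junb with DMSO and 50 nM JQ1 were below 0.37 and thus not separable. The 2 states differed by -1.90 ± 0.23 for Fosl2, -1.46 ± 0.14 for Junb and -1.63 ± 0.31 for Jun (adjusted p = 0.000695, 0.000286 and 0.00597). For Fosb the dependence was -1.42 ± 0.18 and for Atf3 -1.89 ± 0.24 (adjusted p = 0.00099 and 0.00091). Atf3 was not called with the scanner software's log ratio (-0.47, adjusted p = 0.77), and Jun was then at an adjusted p of 0.050.

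The DMSO pairs lay on 1 slide and the JQ1 pairs did not, and the treatment time of Th2 cells with DMSO is unclear. The part of either in these differences was not tested. All Th1 arrays of the tested pairs were those at 6 hr. In unstimulated Th1 cells with 500 nM JQ1 at 24 hr, Fos was at -3.56, Fosl2 at 1.17, Junb at -0.55 and Atf3 at 0.90. Unstimulated Th2 cells with 500 nM JQ1 were at -3.56, 1.545, 0.06 and 1.14 in the same order. Jun was still higher in Th1 cells there (-0.82 against -2.46), and Fosb was not separable. With DMSO the unstimulated Th1 array at 24 hr was above the Th2 array for all these genes. Batf3, which in mice is known for its role in dendritic cells, differed in another way: it was higher in Th1 cells in all 10 pairs, flavopiridol included, by 0.58 to 1.46, and the difference did not depend on the state by the test (0.05, adjusted p = 0.835).

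**Figure D2:**
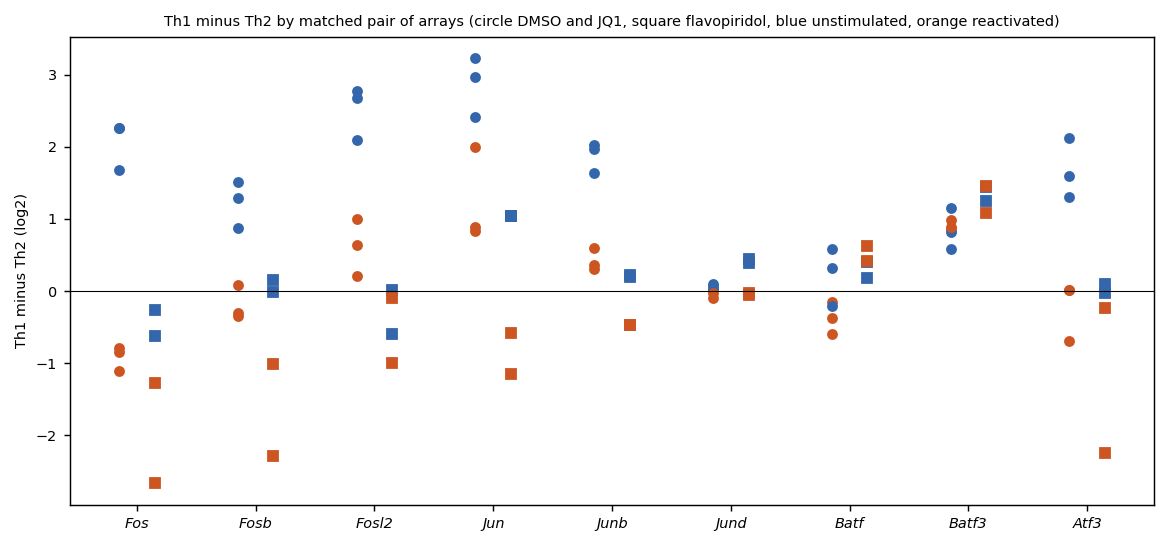
Th1 minus Th2 log2 difference of the 9 AP-1 genes for each of the 10 matched pairs of arrays (circles DMSO and JQ1, squares flavopiridol, blue unstimulated, orange reactivated). In the DMSO and JQ1 pairs Fos lies between 1.68 and 2.27 when unstimulated and between -1.11 and -0.78 when reactivated, and Batf3 is above 0 in every pair.

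Unstimulated Th1 cells at 24 hr had lower levels of most AP-1 genes than those at 6 hr, without a test because each time had 1 array. In unstimulated cells with DMSO, the 24 hr array differed from the 6 hr array by -1.82 for Fosl2, -1.38 for Fos, -1.07 for Junb and -1.005 for Atf3, by -0.73 to -0.47 for Fosb, Batf and Jun, and by 0.51 for Jund and 0.53 for Batf3. With 500 nM JQ1 the differences of Fosl2, Fos, Junb and Atf3 were -2.47, -1.68, -2.24 and -1.84. There Batf3 was lower, at -0.68, and Jund was not separable, at 0.17. After reactivation with DMSO the differences of Fosl2, Fos and Junb were 0.29, 0.41 and -0.14, of which only that of Fos passed 0.37. After reactivation with 500 nM JQ1 they were -0.43, 0.39 and -0.78, so Fosl2 and Junb were lower at 24 hr there too. The 6 and 24 hr arrays lay on different slides.

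Flavopiridol at 10 µM lowered Fosl2, Jund, Batf and Atf3 against DMSO. Of the 9 genes 4 were called lower and 1 higher, and of 12430 genes 48.9% were called, 33.5% lower and 15.4% higher. With 1 µM the same 5 genes were called, against 51.7% of all genes, 35.4% lower and 16.2% higher. The median of all genes was -0.22 under this scaling. It was -1.05 when arrays were centred on their median and -0.97 when they were shifted by their spike-in RNA. Flavopiridol differences were accordingly lower under both of these scalings. The spike-in shift was not the same in both cell types. The spike-in median was -0.30 to 0.05 on the Th1 and 0.38 to 0.63 on the Th2 flavopiridol arrays, against -0.77 to -0.27 with DMSO. The genes called with 10 µM went from 1910 higher and 4166 lower to 286 and 8284 with median centring and 279 and 7684 with the spike-in shift. With 1 µM they went from 2016 and 4406 to 380 and 7750 and to 386 and 6299.

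Jund was at -3.95 to -3.44 on the 8 flavopiridol arrays and at -0.93 to -0.31 on the 6 DMSO arrays. The ranges did not overlap. On the slides that held flavopiridol, the arrays without it were at -0.88 to 0.80. With 10 µM Jund fell by 2.82 ± 0.11 on the log2 scale (4 contexts, adjusted p = 5.1e-06), or 7.08-fold, and with 1 µM by 2.73 ± 0.11 (adjusted p = 3.3e-06).

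Fosl2 was at -0.22 to 0.95 with flavopiridol and at 1.76 to 4.44 with DMSO. It was close to the naive level on 6 of the 8 flavopiridol arrays, and the highest of the 8 were the Th2 arrays with 1 µM, at 0.66 and 0.95. The fall with 10 µM was -3.41 ± 0.48 (adjusted p = 0.00057), or 10.6-fold, and with 1 µM it was -2.91 ± 0.48 (adjusted p = 0.0011). A second, dimmer Fosl2 probe was not well above background on 12 of the 24 arrays, all 8 flavopiridol arrays among them.

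Batf, which drives T cell responses together with IRF4, was at -1.55 to -0.64 with flavopiridol and at 0.66 to 1.26 with DMSO. All 8 flavopiridol arrays were below the naive level and all 6 DMSO arrays above it. The differences were -2.04 ± 0.16 with 10 µM and -2.23 ± 0.16 with 1 µM (adjusted p = 4.1e-05 and 1.7e-05).

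Atf3 was at 0.04 to 0.49 with 10 µM flavopiridol and at 1.61 to 4.25 with DMSO. It differed by -3.04 ± 0.49 (adjusted p = 0.0011), and 3 of the 4 arrays with 10 µM were not well above background in Cy3. In Cy3 alone, set against the higher of the array's lowest signal well above background and the probe's own, Atf3 was at least 23.5-fold lower in reactivated Th1, at least 8.41-fold lower in unstimulated Th1 and at least 2.26-fold lower in unstimulated Th2 cells. Such bounds are open to dye bias, since dyes were not swapped. With 1 µM the difference was -2.13 ± 0.49 (adjusted p = 0.0058), and here 1 array stood apart: reactivated Th2 cells were at 3.24, against 0.99 in reactivated Th1 cells and at most 0.17 in unstimulated cells. That call was lost with the scanner software's log ratio.

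Batf3 was not lowered under this scaling. It was at 2.72 to 4.34 with flavopiridol and at 2.56 to 3.67 with DMSO, and it differed by 0.72 ± 0.17 with 10 µM (adjusted p = 0.0089) and by 0.54 ± 0.17 with 1 µM (adjusted p = 0.029). With 10 µM it was higher in all 4 contexts, by 0.46 to 1.20. With 1 µM the differences in unstimulated and reactivated Th2 cells, 0.29 and 0.07, were not separable. The direction turned with median centring (-0.40 and -0.38) and with the spike-in shift (-0.02 and -0.01), so it shows a change relative to the other genes of an array. The call with 10 µM was lost without the block (adjusted p = 0.21), where 41.2% of all genes were called. With 1 µM it was lost with slide as a random block (adjusted p = 0.090), with Cy3 alone (0.50, adjusted p = 0.16), with the deposited ratios, and without any 1 of the 4 Th1 arrays with DMSO or 1 µM (adjusted p = 0.067 to 0.101).

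Fos, Fosb, Jun and Junb were not called with 10 µM, at 1.14, -0.13, -0.97 and -0.13 (adjusted p = 0.26, 0.85, 0.28 and 0.73). Fos and Fosb were not well above background on 3 unstimulated flavopiridol arrays, and each of these 4 genes was higher in some contexts and lower in others. These 4 genes depended on the scaling. With median centring Junb (-1.22, adjusted p = 0.0027) and Fosb (-1.08, adjusted p = 0.039) were called lower, and with the spike-in shift Junb (-0.88, adjusted p = 0.016) and Jun (-1.71, adjusted p = 0.018) were called lower. Without the unstimulated Th1 DMSO array Fos was called (2.10, adjusted p = 0.012), and without the reactivated Th2 DMSO array Jun was called (-1.74, adjusted p = 0.029). Jun differed from DMSO by -3.43 and -1.24 in unstimulated Th1 and Th2 cells and by -0.59 and 1.39 in reactivated ones. Fos differed by -1.31 and 1.22 in unstimulated and by 1.41 and 3.24 in reactivated Th1 and Th2 cells. The difference from DMSO in reactivated cells minus that in unstimulated cells was 2.73 ± 0.87 for Jun and 2.37 ± 0.98 for Fos, neither of which passed the test (adjusted p = 0.077 and 0.15). For Atf3 it was -1.66 ± 0.78 (adjusted p = 0.20). By limma 0 of the 9 genes were called for this dependence on state, against 15.8% of all genes (8.9% higher, 6.93% lower). That share was 5.32% with the scanner software's log ratio and 1.14% with the spike-in shift. The unadjusted p were 0.016 for Jun and 0.045 for Fos. Without the unstimulated Th2 DMSO array both were called, Fos at 3.72 and Jun at 3.83 (adjusted p = 0.032 and 0.034), and without the reactivated Th1 DMSO array Jun was called (3.58, adjusted p = 0.027).

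With 1 µM the dependence on state, added after the values were seen, was 3.77 ± 0.98 for Fos (adjusted p = 0.041) and 3.10 ± 0.87 for Jun (adjusted p = 0.052). Of all genes 16.4% were called (8.63% higher, 7.76% lower), and 6.38% with the scanner software's ratio and 1.54% with the spike-in shift. Fos was the 1 gene of the 9 called. Its call was lost with the scanner software's ratio (5.58), the spike-in shift (3.38) and the deposited ratios (3.65), and in 10 of the 12 fits that left out 1 array. Between Th1 and Th2 cells the effect of 10 µM differed by -1.70 ± 0.51 for Fosl2 and -1.26 ± 0.36 for Junb, and 0 of the 9 genes were called (adjusted p = 0.27 and 0.25, unadjusted 0.016 and 0.012), against 0.0161% of all genes.

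**Figure D3:**
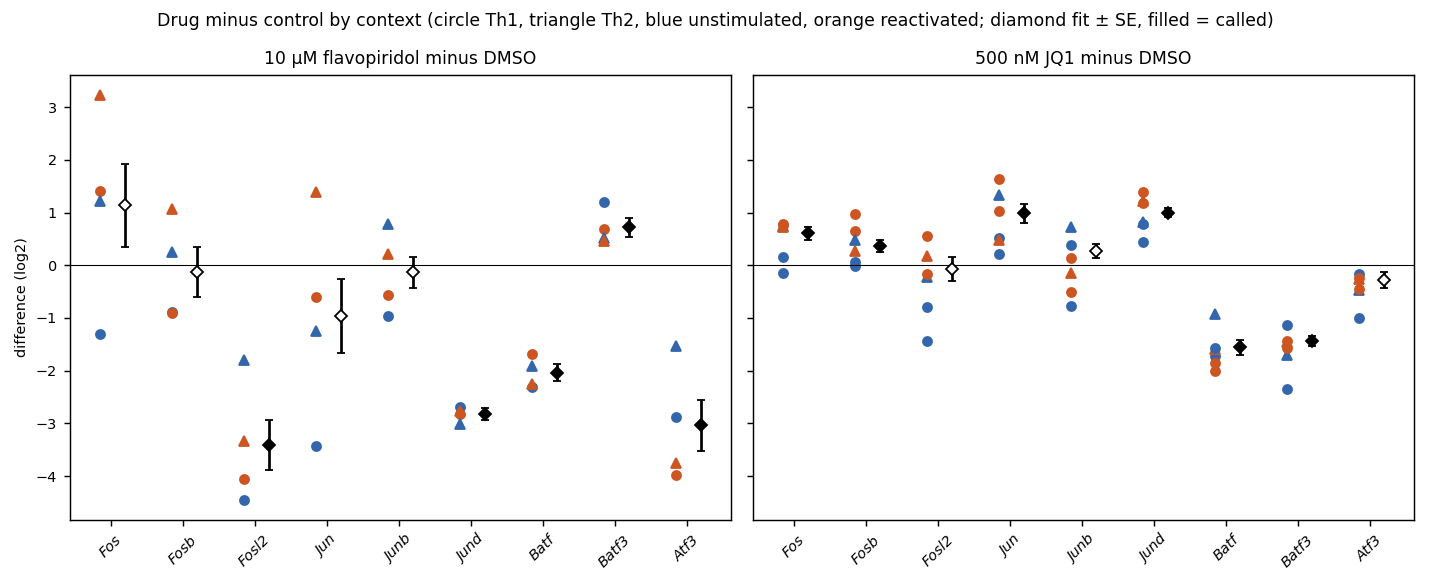
Differences from DMSO (log2) of the 9 AP-1 genes in each context, for 10 µM flavopiridol and 500 nM JQ1 (circles Th1, triangles Th2, blue unstimulated, orange reactivated), with the fitted difference ± SE as a diamond that is filled where called. Jund lies near -2.82 with flavopiridol and near 1.00 with JQ1, Batf lies below 0 with both drugs, and Batf3 lies above 0 with flavopiridol and below 0 with JQ1.

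Under 1 µM flavopiridol Fos, Fosb and Jun rose on reactivation, in tests over the 12 pairs that were added after the values were seen. With 1 µM 3 of the 9 genes were called higher, against 4.78% of all genes called, 3.89% higher and 0.895% lower. Fos went from -3.51 to 1.91 in Th1 and from -2.89 to 3.19 in Th2 cells. It thus passed the naive level, which it did on no DMSO or JQ1 array. The fitted rise was 5.75 ± 0.89 (adjusted p = 0.0032). The unstimulated Th2 array was not well above background for Fos or Fosb, so that the fitted rises of both genes are not exact. In Cy3 alone Fos was at least 71.7-fold and Fosb at least 109.1-fold higher after reactivation in Th2 cells. The log2 ratio of Fosb differed by 5.24 in that pair, which is less than its bound in Cy3. The Cy5 signal of Fosb ranged over 1.90 (log2) across the 24 arrays.

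Fosb went from -0.36 to 3.90 and from -0.34 to 4.91 in Th1 and Th2 cells, a rise of 4.75 ± 0.60 (adjusted p = 0.0012). Jun went from -3.83 to -0.39 and from -4.87 to 0.19, a rise of 4.25 ± 0.66 (adjusted p = 0.0033). For Jun the 4 unstimulated flavopiridol arrays were the lowest of all 24, next to unstimulated Th2 cells with DMSO (-3.79), and the reactivated ones were within the range of the other reactivated arrays. Atf3 differed by 1.99 ± 0.65 and was not called (adjusted p = 0.14), though it was with the spike-in shift (1.94, adjusted p = 0.00043) and the scanner software's ratio (4.11, adjusted p = 0.027). Leaving out the Th2 pair left 1 pair, so no call is given. The rises were then 5.41 for Fos, 4.26 for Fosb and 3.44 for Jun.

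With 10 µM Fos went from -3.35 to -0.20 in Th1 and from -3.08 to 2.47 in Th2 cells. Jun went from -3.98 to -1.20 and from -5.03 to -0.04, and Fosb from -0.24 to 1.69 and from -0.39 to 3.98. The fitted differences of 4.35 ± 0.89 (Fos), 3.88 ± 0.66 (Jun) and 3.15 ± 0.60 (Fosb) did not pass the test (adjusted p = 0.20, 0.10 and 0.18), where only 0.0677% of all genes were called, and their unadjusted p were 0.00047, 0.00011 and 0.00028. In Cy3 alone Fos was at least 8.85-fold higher after reactivation in Th1 cells and at least 48.4-fold higher in Th2 cells, because its unstimulated signal was not well above background. The same held for Fosb, which was at least 3.32-fold higher in Th1 and at least 26.3-fold higher in Th2 cells, so that the fitted differences of both genes are not exact. Fosl2, Jund, Batf and Batf3 differed by -0.16 to 0.30 between the states under 10 µM.

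**Figure D4:**
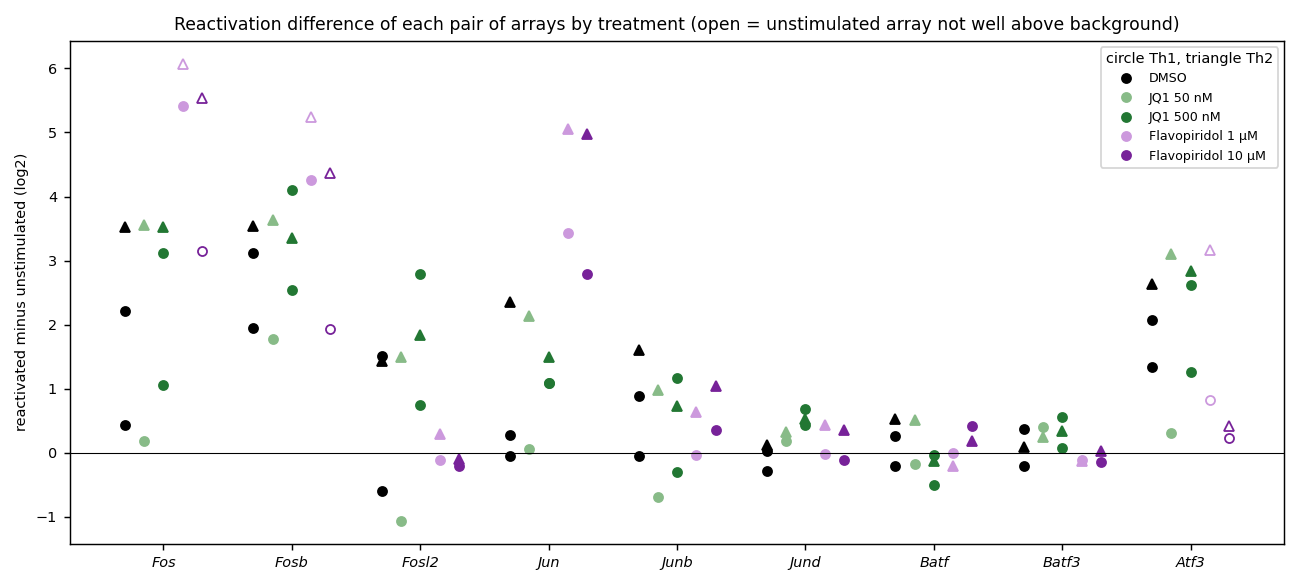
Reactivated minus unstimulated log2 difference of the 9 AP-1 genes for each of the 12 pairs of arrays, by treatment (circles Th1, triangles Th2, open symbols with the unstimulated array not well above background in Cy3). The highest pair of Fos (6.08), of Fosb (5.24) and of Jun (5.06) is that of Th2 cells with 1 µM flavopiridol, whereas Fosl2 lies near 0 there and between -1.07 and 2.79 without flavopiridol.

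JQ1 at 500 nM lowered Batf and Batf3 and raised Jund, Jun, Fos and Fosb. Of the 9 genes 2 were called lower and 4 higher, and of 12910 genes 47.6% were called, 29.9% lower and 17.7% higher. The 3862 genes lower and 2283 higher became 5814 and 738 with median centring and 4217 and 88 with the spike-in shift. Batf differed by -1.56 ± 0.15 (adjusted p = 2.0e-05), or 2.95-fold, and it was lower in all 6 comparisons with the matched DMSO array, by -2.02 to -0.93. Batf3 differed by -1.44 ± 0.09 (adjusted p = 3.0e-06), or 2.71-fold, and was also lower in 6 of 6, by -2.34 to -1.14. On the slides shared with the controls, which are those of Th1 cells, the values were -1.71, -2.02, -1.57 and -1.86 for Batf and -1.14, -1.44, -2.34 and -1.58 for Batf3 (unstimulated and reactivated at 6 hr, then at 24 hr). All 8 were lower than -1.

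Jund was at -0.12 to 0.80 on the 6 arrays with 500 nM JQ1 and at -0.93 to -0.31 with DMSO, and the ranges did not overlap. It was higher by 1.00 ± 0.09 (adjusted p = 1.5e-05), in 6 of 6 comparisons. Jun was higher by 0.99 ± 0.18 (adjusted p = 0.0014), with single differences of 0.21 to 1.64, of which that in unstimulated Th1 cells at 24 hr was not separable. Its highest level of the 24 arrays, 1.03, was that of reactivated Th1 cells with 500 nM JQ1 at 6 hr.

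Fos was higher by 0.61 ± 0.12 (adjusted p = 0.0023) and Fosb by 0.37 ± 0.11 (adjusted p = 0.022). The call of Fosb was lost without the reactivated Th1 array of DMSO or of 500 nM JQ1, or the unstimulated Th2 array of either (adjusted p = 0.051 to 0.074). In unstimulated Th1 cells their differences were within 0.17 of 0, and in reactivated Th1 cells they were 0.66 to 0.98. In Th2 cells Fos differed by 0.74 unstimulated and 0.73 reactivated, and Fosb by 0.47 and 0.27. The spike-in shift moved the median of all genes from -0.07 to -0.61. Fosb then turned to -0.17, and Fos, Jun and Jund (0.07, 0.45 and 0.47) were not called. Batf and Batf3 were called still, and Atf3 was called too (-0.82). The shift lay mostly in reactivated cells. Their spike-in median was 0.94 (Th1 at 6 hr) and 0.03 (Th2) with 500 nM JQ1, against -0.52 and -0.77 with DMSO. Unstimulated Th1 and Th2 cells were at -0.44 and -0.30, against -0.27 and -0.34 with DMSO. With median centring Fos (0.25) and Fosb (0.06) were not called. Without the context block Fos, Fosb and Jun were not called either, where 6.96% of all genes were called. Fosl2 (-0.07), Junb (0.27) and Atf3 (-0.28) were not called, with adjusted p of 0.82, 0.13 and 0.15.

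With 50 nM JQ1 none of the 9 genes was called by limma, against 0.341% of all genes (0.256% higher, 0.0852% lower). Batf differed by -0.50 ± 0.15 and Batf3 by -0.32 ± 0.09 (adjusted p = 0.18 and 0.17, unadjusted 0.0063 and 0.0056), and these 2 genes alone were below the unadjusted 0.05. In the 4 contexts Batf differed by -0.63 to -0.38. Batf3 differed by -0.48 to -0.21, and only its difference in unstimulated Th2 cells passed 0.37. With Cy3 alone and with the deposited ratios 1 of the 9 was called, Batf3 at -0.81 and -0.89. From 50 to 500 nM JQ1 Batf differed by -1.42 to -0.55 and Batf3 by -1.23 to -0.90 in the 4 contexts.

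The effect of 500 nM JQ1 did not pass the test for dependence on state in any of the 9 genes, against 10.1% of all genes (4.5% higher, 5.62% lower). The values nearest to the threshold were 0.87 ± 0.28 for Fosl2, -0.56 ± 0.18 for Junb and 0.41 ± 0.13 for Jund (adjusted p = 0.076, 0.073 and 0.082, unadjusted 0.011, 0.010 and 0.012). With the spike-in shift 6 of the 9 were called, where 82.1% of all genes were (4 higher, 10597 lower) and the median of all genes was -1.21. That shift lay mostly in the reactivated arrays, as given above. Fosl2 and Jund then turned to -0.32 and -0.78 and were not called, and Junb was called at -1.75 (adjusted p = 0.00087). Junb was also called without the unstimulated Th1 array of 500 nM JQ1 at 6 hr (-0.74, adjusted p = 0.036), and Fosl2 without either Th2 array of 500 nM JQ1 (1.18 and 1.16, adjusted p = 0.041 and 0.033). None was called for dependence on cell type, where 0% of all genes were called, and Batf had the lowest unadjusted p, 0.041, with a difference of -0.61. On reactivation under 500 nM JQ1, tested over the 12 pairs, 6 of the 9 genes were called higher, and of all genes 47.7% were called, 19.2% higher and 28.5% lower. Fosb rose by 3.33 ± 0.49, Fos by 2.56 ± 0.72, Atf3 by 2.24 ± 0.53, Fosl2 by 1.79 ± 0.51, Jund by 0.55 ± 0.13 and Batf3 by 0.32 ± 0.12 (adjusted p = 0.00022, 0.012, 0.0045, 0.013, 0.0038 and 0.048). Jund and Batf3 were not called with median centring (0.21 and 0.16, adjusted p = 0.34 and 0.32) or with the spike-in shift (0.11 and -0.12, adjusted p = 0.81 and 0.78), and Batf3 was not called with Cy3 alone or the deposited ratios. Atf3 was not called with the scanner software's ratio (0.72, adjusted p = 0.46). Without the Th1 pair at 24 hr or without the Th2 pair Fos, Fosl2 and Batf3 were not called. Under 50 nM JQ1 2 of the 9 were called, Fosb at 2.71 ± 0.60 and Atf3 at 1.70 ± 0.65 (adjusted p = 0.0034 and 0.049), against 47% of all genes, 19.8% higher and 27.2% lower. Without the Th2 pair neither was called (1.78 and 0.30).

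Genes that act with AP-1 were described by lists, whose counts stand beside those of all genes. Of 12 target genes that AP-1 and NFAT share, mostly cytokine genes, 10 were called higher on reactivation without drug, where 21.9% of all genes were, with a list median of 3.28 against -0.05 for all genes. Il3 rose by 7.61 and Csf2, the gene of GM-CSF, by 6.49 (adjusted p = 8.9e-05 and 2.6e-05). Il3 was well above background in Cy3 on 21 of the 24 arrays and Csf2 on 14, so these rises are not exact. With 10 µM flavopiridol 6 of 11 tested were called lower and 1 higher, against 33.5% and 15.4% of all genes (median -1.96 against -0.22). Il3 was at -4.47, Il2 at -3.88 and the IL-2 receptor chain Il2ra at 1.21 (adjusted p = 0.021, 0.026 and 0.0069). Il2 was well above background in Cy3 on 16 arrays, and the falls of Il3 and Il2 are likewise not exact. With 500 nM JQ1 10 of 12 were called lower, against 29.9% of all genes (median -0.75 against -0.07), and the largest falls were those of Fasl at -2.16 and Il13 at -1.23 (adjusted p = 0.00082 and 0.0064). Under 1 µM flavopiridol 3 of the 12 were called higher on reactivation, against 3.89% of all genes, led by Tnf at 4.64 and Il3 at 2.52 (adjusted p = 0.00022 and 0.0031).

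Among the 5 DNA-binding partners, 2 rose and 3 fell on reactivation, against 21.9% and 29% of all genes. Irf4, the partner of Batf, rose by 2.35 and Irf8 by 1.19, and Nfatc2 and Nfatc3 were at -1.68 and -1.33 (adjusted p = 0.0014, 0.013, 0.0023 and 0.00071). With 10 µM flavopiridol 4 of 5 were called lower, against 33.5% of all genes, with Irf4 at -3.79 and Irf8 at -2.15 (adjusted p = 0.00050 and 0.0015). With 500 nM JQ1 2 were called lower and 1 higher, against 29.9% and 17.7% of all genes, with Nfatc2 and Irf4 at -0.53 each and Nfatc3 at 0.34 (adjusted p = 0.00024, 0.0053 and 0.024).

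Of 18 MAP kinase genes upstream of AP-1, 2 rose and 5 fell on reactivation, no larger a share than the 21.9% and 29% of all genes. Map2k3, a kinase of the p38 branch, rose by 2.40 and Map2k6 of the same branch was at -2.12 (adjusted p = 0.00039 and 0.00023). With 10 µM flavopiridol 8 were lower and 2 higher, against 33.5% and 15.4% of all genes, with Map3k1 at -2.08 and Mapk3 at 2.00 (adjusted p = 0.0012 and 0.00066). With 500 nM JQ1 7 were higher and 3 lower, against 17.7% and 29.9% of all genes, with the p38 gene Mapk14 at 0.90 and Map4k1 at -1.26 (adjusted p = 6.2e-05 and 7.1e-06).

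Of 7 regulators that bind the Fos promoter, Srf and Creb1 were lower on reactivation, at -0.40 and -0.72 (adjusted p = 0.034 and 0.036), and the other 5 were not called, where 29% of all genes were lower. With 10 µM flavopiridol 4 were lower and 1 higher, against 33.5% and 15.4% of all genes, with Elk1 at -2.38 and Elk4 at 0.78 (adjusted p = 0.00018 and 0.0040). Elk3 was the single gene of all lists called with 50 nM JQ1, at -0.60, and it was at -2.19 with 500 nM (adjusted p = 0.047 and 8.4e-07). Of 6 genes of RNA decay and protein turnover, 3 rose and 1 fell on reactivation, against 21.9% and 29% of all genes, with Zfp36l1, which destabilizes AU-rich mRNA, at 1.79 and Zfp36l2 at -2.23 (adjusted p = 0.0072 and 0.00060). With 10 µM flavopiridol 4 of the 6 were lower, against 33.5% of all genes, Zfp36l1 at -3.47 and Zfp36l2 at -3.09, and with 1 µM Zfp36 was higher by 0.62 (adjusted p = 5.3e-05, 0.0017 and 0.023).

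Of the 4 further Fos, Jun, Batf and Atf relatives tested, 1 was called higher and 1 lower on reactivation, against 21.9% and 29% of all genes. Fosl1 rose by 3.61 and Jdp2, a repressor of AP-1, was at -1.30 (adjusted p = 0.000155 and 0.0028). Fosl1 was well above background in Cy3 on 12 arrays, so that its differences are not exact. With 10 µM flavopiridol 3 of the 4 were called lower, against 33.5% of all genes, with Fosl1 at -1.95 (adjusted p = 0.040). With 500 nM JQ1 3 of the 4 were called lower, against 29.9% of all genes, with Fosl1 at -0.89 (adjusted p = 0.033). Of 8 Maf and CNC relatives, 5 rose and 2 fell on reactivation, against 21.9% and 29% of all genes, led by Mafk at 1.35 and Maff at 1.30, and 6 of 8 were lower with 10 µM flavopiridol, against 33.5% of all genes, with Maff at -2.20 and Nfe2l2 at -2.09 (adjusted p = 0.00053, 0.0097, 0.0031 and 0.0020). In Th1 against Th2 cells 4 of 9 were higher, against 14.5% of all genes, with Maff at 1.64 and Nfe2l2 at 1.48 (adjusted p = 0.0047 and 0.00024).

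The patterns of the 9 genes over the 24 arrays fell near those of different other genes, given here as a description because the arrays share 1 reference and treatments recur. Among 11815 genes, Fos was most like Egr4 (Pearson r = 0.960), Fosb (0.910) and Ier5 (0.883), and Fosb was most like Egr4 (0.926), Fos (0.910) and Egr3 (0.905). Jun was nearest to Nfkbiz (0.865), Egr1 (0.844) and Gadd45b (0.841). Most of these genes are early-response genes. Junb had no close match, with Cd69 at 0.729 and Nfkbiz at 0.711.

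Atf3 followed the orphan nuclear receptor genes Nr4a1 (0.972) and Nr4a2 (0.956) and then Csrnp1 (0.941). Fosl2 was nearest to Zfp948 (0.966), Relb (0.959) and Siah2 (0.957). Jund was nearest to Thap7 (0.979) and Tbcc (0.978), Batf to Gypc (0.956), Nmnat1 and Mrpl53 (0.938 each), and Batf3 to Ptpmt1 (0.970), Ly6a (0.954) and Anxa9 (0.949).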

How the data were processed

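RNA of Th1 and Th2 cells was hybridized in Cy3 against naive CD4+ T cell RNA in Cy5 on 24 Agilent arrays, without dye swaps. The deposited files held median intensity and background of each spot, and a log10 ratio computed by Agilent Feature Extraction 10.7.1.1. The authors also deposited a log2 ratio table of 34710 probes, whose normalization was not stated. It holds no Batf probe. Its column medians were -0.02 to 0.01, and it followed the ratios computed here with r of 0.981 to 0.996. In limma 3.58.1 (R 4.3.3), background was corrected with normexp (offset 50) and arrays were then put through loess, and controls and flagged spots were left out. The SD of repeated spots was 0.09 to 0.11 (log2), and the number of arrays limits precision. Genes were represented by their brightest probe and tested with lmFit and eBayes when well above background in Cy3 on at least 3 arrays of the fit. Reactivation was fitted with array pairs as a block, drugs on 12 arrays with cell type and state as a block of 4 contexts, and Th1 against Th2 with treatment and state as a block. Both doses share their DMSO arrays. The 9 genes, the lists and the tests were chosen with earlier results of these data known. The text names all 9 genes, up to 2 rises and 2 falls among the called genes of a list, and the 3 genes most like each member among those well above background on at least 12 arrays. A few genes that these rules would name are not reported here. Reactivation under each drug, the state dependence of 1 µM flavopiridol and that of Th1 against Th2 were added after the values were seen. Fits were tested on simulated data. Probe coordinates are not given, because the array grid is on build mm9. Alternatives were the software's log ratio, median centring, a spike-in shift, Cy3 alone, other probe rules, an offset of 10, the deposited table, slide as a random block, fits without a block and leaving out single arrays or pairs.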

Additional observations from a re-analysis of the deposited data

Results flagged for a closer look

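The difference between Th1 and Th2 cells was not the same in unstimulated and reactivated cells for 6 genes, by a test of the difference itself over the 6 matched pairs with DMSO or JQ1. The change from unstimulated to reactivated was -2.98 for Fos, -1.42 for Fosb, -1.90 for Fosl2, -1.63 for Jun, -1.46 for Junb and -1.89 for Atf3. The test used the Th1 arrays of 6 hr only and was added after the values were seen. The unclear treatment time of the Th2 DMSO arrays is part of the DMSO pair, and its part in the difference was not tested.

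The effect of 1 µM flavopiridol on Fos was 3.77 larger in reactivated than in unstimulated cells (adjusted p = 0.041 by limma). It was the 1 gene of the 9 that passed, and 1 of the 4 flavopiridol arrays with 1 µM, that of unstimulated Th2 cells, was not well above background for Fos.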

How the results depend on the processing

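Of 1165 values of the 9 genes under alternatives, 1038 kept their direction and side of the threshold, 60 lost and 36 gained a call, and 31 changed sign, of which 6 belonged to called genes.

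Counts of the 9 genes called that changed by 1.5 times or more are given here, with the count as analysed first. Reactivation without drug went from 3 to 2 with the software's log ratio. It went to 5 with the spike-in shift and 2 to 5 without single pairs. Flavopiridol at 1 µM went from 5 to 3 with the deposited table, which holds no Batf probe, so that Batf3 was the 1 call lost (0.46, adjusted p = 0.148). JQ1 at 500 nM went from 6 to 3 with the spike-in shift and to 3 without the block. The share of all genes called there went from 47.6% to 33.35% and to 6.96%. JQ1 at 50 nM went from 0 to 1 with Cy3 alone and to 1 with the deposited table (0 to 1 without single arrays). Dependence on state went from 0 to 6 for 500 nM JQ1 with the spike-in shift (0 to 2 without single arrays) and was 0 to 2 for 10 µM flavopiridol without single arrays. For 1 µM flavopiridol it went from 1 to 0 with the software's log ratio, 2 with median centring, 0 with the spike-in shift and 0 with the deposited table, and was 0 to 3 without single arrays. Th1 against Th2 went from 4 to 2 with flavopiridol pairs, and its dependence on state from 6 to 4 with the software's log ratio. Reactivation under 50 nM JQ1 went from 2 to 1 with the software's log ratio, 1 with median centring and 4 with the spike-in shift, and 0 to 3 without single pairs. Under 500 nM JQ1 it went from 6 to 4 with median centring or the spike-in shift and to 3 without the Th1 pair at 24 hr or the Th2 pair. Under 10 µM flavopiridol it went from 0 to 2 with the software's log ratio and 3 with the spike-in shift. Under 1 µM flavopiridol leaving out the Th2 pair left 1 pair, and only the rises are given for that fit.

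Among the tracked values, signs changed for the following. With median centring they were -0.029 (Batf3, reactivation), -0.13 (Fos) and -0.40 (Batf3) for 10 µM flavopiridol, -0.38 (Batf3, 1 µM) and -0.017 (Junb, 500 nM JQ1). With the spike-in shift they were 0.23 (Jund, reactivation), -0.024 and -0.011 (Batf3, 10 and 1 µM flavopiridol), -0.17 and -0.26 (Fosb and Junb, 500 nM JQ1), -0.32 and -0.78 (Fosl2 and Jund, JQ1 by state) and -0.12 (Batf3, reactivation under 500 nM JQ1). With the software's log ratio they were -0.12 and 0.27 (Fos and Junb, 10 µM flavopiridol), 0.14 and 0.063 (Fosl2 and Atf3, 500 nM JQ1) and 2.90 (Atf3, 10 µM flavopiridol by state). With an offset of 10 Junb was at 0.019 (10 µM flavopiridol), with Cy3 alone Fosl2 at 0.018 (500 nM JQ1), and with flavopiridol pairs Fos and Fosb at -0.14 and -0.0038 (Th1 against Th2). Without single pairs or arrays, reactivation ran from -0.060 to 0.23 (Batf3) and -0.13 to 0.074 (Jund), 10 µM flavopiridol from -0.55 to 0.28 (Fosb) and -0.47 to 0.11 (Junb), and 500 nM JQ1 from -0.33 to 0.19 (Fosl2). The cause was not tested.

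Over all genes, the calls higher and lower on reactivation went from 2635 and 3624 to 1626 and 4358 (50 nM JQ1) and from 2558 and 3793 to 1317 and 5217 (500 nM JQ1) with median centring. With the spike-in shift they went to 973 and 1016 (50 nM JQ1), 563 and 3542 (500 nM JQ1) and from 517 and 119 to 140 and 2 (1 µM flavopiridol). For dependence on state the spike-in shift moved them from 581 and 726 to 4 and 10597 (500 nM JQ1), from 1106 and 862 to 40 and 102 (10 µM flavopiridol) and from 1073 and 965 to 54 and 137 (1 µM), and median centring moved the last to 679 and 342. Signal near background limits Atf3, Fos and Fosb under flavopiridol.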
